A study of Homo sapiens with 4 samples.

Results

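The metallothioneins and zinc-handling genes described here are 10 genes of 26255 in the expression tables, chosen by symbol: the metallothioneins MT1E, MT1F, MT1G, MT1X and MT2A, the transcription factor MTF1, the zinc exporter SLC30A1 and the zinc importers SLC39A1, SLC39A6 and SLC39A14. The cells were A549, an established line from a human lung adenocarcinoma, labelled wild type. Cells were kept for 5 days with 5% serum in 4 groups of 1 library each: 3D hypoxia and 3D normoxia on gelled Matrigel, a basement membrane extract, and 2D hypoxia and 2D normoxia on a culture dish. Hypoxia was 1% oxygen, while for normoxia no oxygen level was given in the labels. The series set out to characterise structures that hypoxia induces, in a study of micropapillary lung adenocarcinoma and HIF-1. Levels are in FPKM (fragments per kilobase per unit of library depth), which divides by transcript length. The annotation used for that was not given, so comparisons of levels between genes are approximate.

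Metallothioneins are small cysteine-rich proteins that bind zinc and copper, buffer free zinc in the cytosol and take up toxic metals such as cadmium. MTF1 senses zinc and switches on metallothionein genes and SLC30A1 through short promoter sequences called metal response elements. SLC30 proteins move zinc out of the cytosol, and SLC39 proteins move it in. Metallothionein genes are also known to respond to glucocorticoids, oxidants and low oxygen in many cell types.

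The epithelial markers were present, since all 5 of EPCAM, CDH1, KRT8, KRT18 and KRT19 had a mean of at least 1 FPKM, whereas 0 of 4 alveolar type II markers and 0 of 4 blood markers did. CA9, a carbonic anhydrase induced by HIF, was at 199.7 FPKM in 3D hypoxia and 4.05 in 3D normoxia, and at 138.5 in 2D hypoxia and 4.0 in 2D normoxia. Depth, inferred from the commonest low values, was about 11300000 fragments in 3D hypoxia, 11800000 in 3D normoxia, 38700000 in 2D hypoxia and 23900000 in 2D normoxia. Both 3D libraries were thus shallower than both 2D libraries. Without replicates no single group has a spread of its own, and a counting error below refers to the sampling of fragments alone. In bulk RNA, fewer cells with a transcript and less of it per cell cannot be told apart.

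The 5 metallothionein members lie in a cluster on chromosome 16. In GENCODE 29, on the GRCh38 build and not the authors' hg19 build, MT2A spans chr16:56608199-56609497, MT1E chr16:56625475-56627112, MT1F chr16:56657694-56660698, MT1G chr16:56666731-56668065 and MT1X chr16:56682424-56684196, with MT1G on the reverse strand and the others on the forward strand. The coding sequences of MT1X, MT2A and MT1G are shown because they bear on how far reads can be told apart. They read 5′ to 3′ from GENCODE 29 transcripts, with the cysteine codons TGC and TGT in capitals:
MT1X: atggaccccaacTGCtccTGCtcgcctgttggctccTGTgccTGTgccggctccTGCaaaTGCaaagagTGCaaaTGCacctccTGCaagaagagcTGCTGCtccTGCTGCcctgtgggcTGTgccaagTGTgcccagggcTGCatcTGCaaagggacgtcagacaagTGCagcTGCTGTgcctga
MT2A: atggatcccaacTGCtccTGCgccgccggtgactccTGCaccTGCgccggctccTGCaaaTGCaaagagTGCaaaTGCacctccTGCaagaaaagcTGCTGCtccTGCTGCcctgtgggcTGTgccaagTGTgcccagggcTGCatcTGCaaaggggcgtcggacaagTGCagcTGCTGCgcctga
MT1G: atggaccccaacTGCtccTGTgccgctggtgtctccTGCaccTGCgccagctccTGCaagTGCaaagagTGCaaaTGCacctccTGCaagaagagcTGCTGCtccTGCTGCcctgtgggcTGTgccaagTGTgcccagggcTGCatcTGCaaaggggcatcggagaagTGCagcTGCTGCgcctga
Each of these coding sequences has 186 bases, and 20 of its 61 sense codons (32.8%) are cysteine codons. Between the 5 members, the 10 pairs shared 88.7% to 95.2% of coding bases. MT1X and MT2A were 92.5% identical with a longest identical run of 63 bases, and MT1X and MT1G were 91.4% identical with a run of 96 bases. With no read length stated in the labels, fragments could be split between these paralogs, and single metallothionein values are uncertain to that extent.

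The promoter windows of MT1X and MT2A are shown because both genes rose under hypoxia (values below), with that of SLC30A1, a zinc exporter gene also known as an MTF1 target. They are RefSeq sequences on GRCh38.p14, the 250 bases before the RefSeq start, which for MT1X and MT2A lies inside the longer GENCODE 29 span given above, 5′ to 3′ on the gene's strand, at chr16:56682220-56682469 (forward), chr16:56608334-56608583 (forward) and chr1:211579162-211579411 (reverse). Capitals mark matches to the core of the metal response element, searched as TGCACNC and TGCGCNC on both strands:
MT1X: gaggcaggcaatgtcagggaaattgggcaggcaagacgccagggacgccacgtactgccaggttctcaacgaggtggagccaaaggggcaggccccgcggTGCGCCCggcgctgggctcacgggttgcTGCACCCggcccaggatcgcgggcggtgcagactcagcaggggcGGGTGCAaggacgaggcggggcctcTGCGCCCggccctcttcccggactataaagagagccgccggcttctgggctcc
MT2A: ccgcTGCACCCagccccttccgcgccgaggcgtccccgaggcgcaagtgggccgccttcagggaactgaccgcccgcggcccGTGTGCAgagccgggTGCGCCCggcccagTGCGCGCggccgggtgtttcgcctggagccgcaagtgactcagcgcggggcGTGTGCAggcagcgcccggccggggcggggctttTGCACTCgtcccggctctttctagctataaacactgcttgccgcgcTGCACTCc
SLC30A1: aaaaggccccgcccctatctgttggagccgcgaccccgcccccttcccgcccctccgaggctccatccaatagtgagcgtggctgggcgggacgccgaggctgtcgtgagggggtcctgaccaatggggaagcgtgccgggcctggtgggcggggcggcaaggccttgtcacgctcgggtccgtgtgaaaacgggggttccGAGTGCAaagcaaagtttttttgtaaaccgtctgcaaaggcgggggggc
The MT1X window held 4 core matches, which 0.37% of all 35116 RefSeq windows of the same length reached or passed. The MT2A window held 7, reached by 0.0313% of windows. SLC30A1 held 1, and 24.8% of windows held at least 1. The SLC30A1 window lies upstream of its GENCODE 29 span, which starts on the reverse strand at 211578742, and bases next to that start were not searched. The hypoxia response element core, searched as ACGTG and GCGTG on both strands, matched 1 time in MT1X, 1 time in MT2A and 3 times in SLC30A1. Of all windows, 43.2% held at least 1 such match and 7.76% at least 3. In MT2A the GCGTG match overlapped a metal response element match. Among the other members with windows, MTF1 held 0 metal response element matches, SLC39A6 1, and the windows of the 2 SLC39A1 starts 0 and 1. Hypoxia core matches numbered 2 in MTF1, 1 in SLC39A6, and 0 and 0 in the SLC39A1 windows. A match is a string of letters and not a measured binding site. In all, 6 of the 10 members had a window, and MT1E, MT1F, MT1G and SLC39A14 were not matched.

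Of the metallothionein members, MT2A and MT1X had the highest FPKM in every library. MT2A was at 449 FPKM in 3D hypoxia, 226 in 3D normoxia, 483 in 2D hypoxia and 236 in 2D normoxia. With a mean of 349 FPKM it ranked 223 among all genes. Both hypoxia libraries were high and both normoxia libraries low, and at each oxygen level 3D and 2D lay close together. MT1X was at 228 FPKM in 3D hypoxia, 43.9 in 3D normoxia, 59.6 in 2D hypoxia and 23.3 in 2D normoxia. Its 3D hypoxia library stood far above the other 3. MT1F was lower, at 14.4 FPKM in 3D hypoxia, 12.1 in 3D normoxia, 9.42 in 2D hypoxia and 5.29 in 2D normoxia, and rested on about 53 to 252 fragments per library. Its 2D normoxia library was the lowest.

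MT1E and MT1G were listed at 0 in all 4 libraries, so 8 of the 10 members had a mean of at least 1 FPKM and could be tested. Each of these 8 was above 1 FPKM in every library. Of the 16 metallothionein genes and pseudogenes in the tables, 9 were listed at 0 throughout. A listed 0 can be a failed estimate in a family with shared reads, and no fold is given for these genes.

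**Figure D1:**
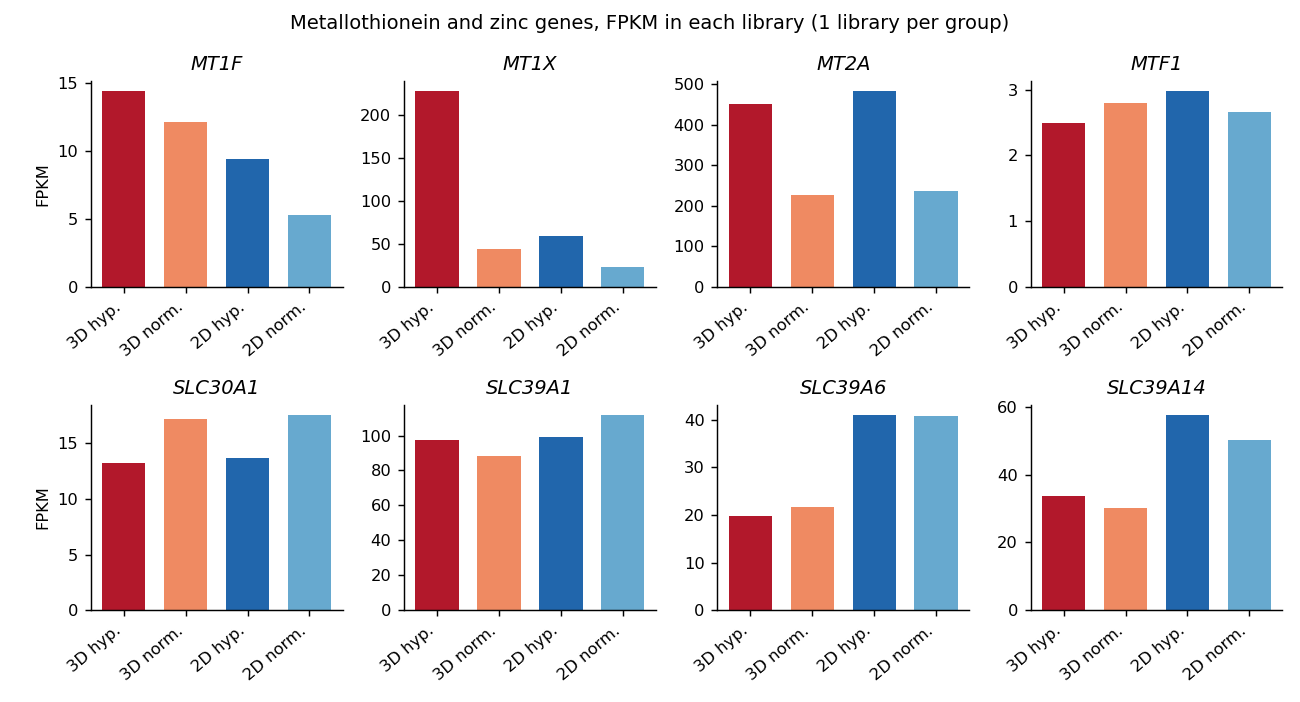
FPKM of the 8 members above a mean of 1 FPKM, 1 bar per library, in 3D hypoxia, 3D normoxia, 2D hypoxia and 2D normoxia, each panel on its own scale from 0. MT2A is high in both hypoxia libraries (449 and 483 FPKM), MT1X mainly in 3D hypoxia (228 FPKM), and SLC39A6 and SLC39A14 are lower in both 3D libraries.

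Under hypoxia MT1X and MT2A rose, and no other member passed the test. The test was limma, a linear model of log2(FPKM + 1) with oxygen and culture as terms, in which a gene passed at an adjusted p below 0.05. MT1X rose by 1.83 ± 0.25 (SE) on the log2 scale as an average over both cultures (limma adjusted p = 0.0251), and was higher in hypoxia in both. MT2A rose by 1.01 ± 0.13 (limma adjusted p = 0.0241), likewise higher in both. MT1F had an average effect of 0.48 ± 0.15, which did not pass (limma adjusted p = 0.132). The summed metallothionein members, in effect MT2A, MT1X and MT1F, rose by 1.17 ± 0.14 (limma adjusted p = 0.0202). The sum is not free of how reads were split among these 3, since FPKM divides by length. Their shortest coding transcripts have 581, 450 and 416 bases. Fragments of paralogs listed at 0, or given to paralogs outside the members, are not in this sum. Of the 8 members tested, 2 rose, beside 3.2% of all 12663 genes tested, and 0 fell, beside 1.64%, by limma over all genes. At an unadjusted p under 0.05, 3 members were higher (MT1X, MT2A and MT1F), beside 1634 of all 12663 genes. At that level 1 member was lower (SLC30A1), beside 1608 of all genes. The median effect was 0.09 for the 8 members and -0.01 for all genes. Over all genes 405 rose and 208 fell, against 303 and 475 when libraries were rescaled to an equal sum, which kept 2 members rising and 0 falling. The fit had 1 residual degree of freedom, and its error for a gene was the difference between the 2 hypoxia responses, moderated over all genes. With 1 library per group, and no label naming separate cultures, its p-values measure no spread between replicates. The hypoxia calls of MT1X and MT2A were lost with a pseudocount of 5 (limma adjusted p = 0.0703 and 0.0558) and without the filter on low values (0.481 and 0.438).

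Within 3D, MT1X was 5.2-fold higher in hypoxia than in normoxia, or 2.35 as the log2 ratio of FPKM + 1 (counting error 0.10). It ranked 45 from the top of 12663 genes. MT2A was 1.99-fold higher, at a log2 ratio of 0.99 (counting error 0.05) and rank 378. MT1F had a ratio of 0.23, within its counting error of 0.24. Thus 1 of 8 members was at least 2-fold higher in 3D hypoxia, beside 2.91% of all genes, and 0 were at least 2-fold lower, beside 1.11%, with member and all-gene medians of 0.15 and -0.02. MT2A stood just under the 2-fold line and passed it when libraries were rescaled by their median ratio. That gave 2 members, beside 378 of all 12663 genes.

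Within 2D, MT1X was 2.55-fold higher in hypoxia (log2 ratio 1.32, counting error 0.10) and MT2A 2.04-fold higher (1.03, counting error 0.03). MT1F had a ratio of 0.73 with a counting error of 0.20. Here 2 of 8 members were at least 2-fold higher, beside 2.01% of all genes, and 0 at least 2-fold lower, beside 1.59%. The member median was 0.16. MT2A dropped below the line (0.89) after rescaling to an equal sum. That left 1 member, beside 236 of all genes. These pairs have 1 library on each side and no test.

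**Figure D2:**
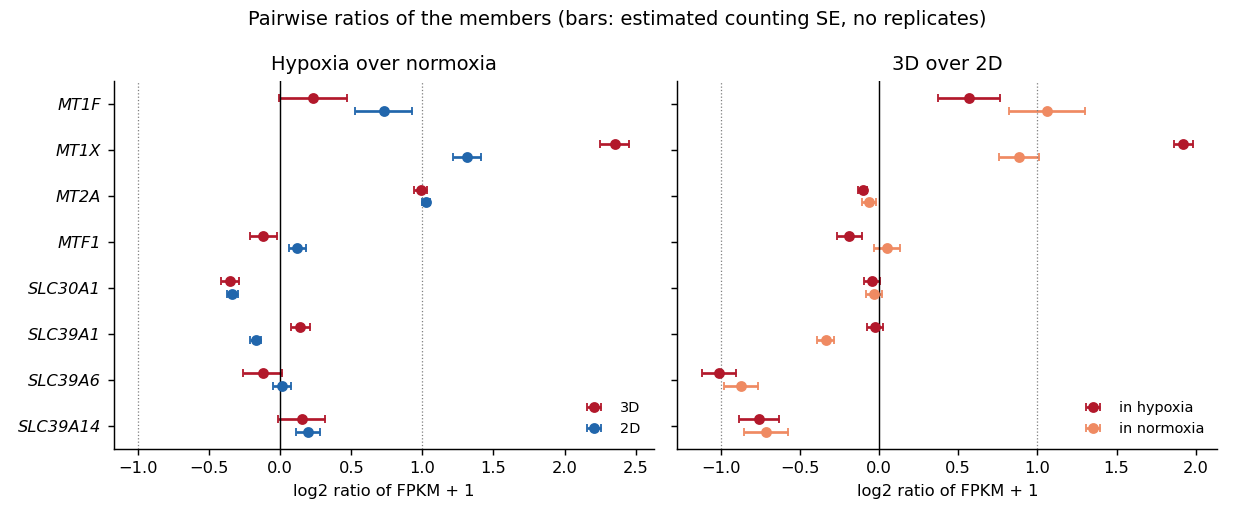
Log2 ratios of FPKM + 1 for the 8 members, hypoxia over normoxia in 3D and in 2D (left) and 3D over 2D in hypoxia and in normoxia (right); bars are estimated counting standard errors and dotted lines mark 2-fold. MT1X lies past 2-fold in both hypoxia pairs (2.35 in 3D and 1.32 in 2D), MT2A lies at about 1 in both, and SLC39A6 and SLC39A14 lie below 0 in both 3D over 2D pairs.

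The hypoxia responses of MT1X in the 2 cultures were not alike in size. Its log2 ratio was 2.35 in 3D and 1.32 in 2D, a difference of 1.04 that ranked 210 from the top of 12663 genes. MT2A had 0.99 in 3D and 1.03 in 2D, a difference of -0.04, and MT1F 0.23 and 0.73, a difference of -0.50. Only MT1X among the 8 members had a difference of at least 2-fold upward, beside 1.87% of all genes, and 0 had one downward, beside 0.861%. No test of this difference is possible with 1 library per group, and the limma fit above took the same difference as its error. The summed metallothionein level was 692 FPKM in 3D hypoxia, 282 in 3D normoxia, 552 in 2D hypoxia and 265 in 2D normoxia, so that its hypoxia ratios were closer together, at 1.29 in 3D and 1.06 in 2D.

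The make-up of the summed metallothionein FPKM, as listed, differed between the libraries. MT1X made up 33.0% of the summed FPKM in 3D hypoxia, 15.6% in 3D normoxia, 10.8% in 2D hypoxia and 8.8% in 2D normoxia. MT2A made up 64.9% in 3D hypoxia, 80.1% in 3D normoxia, 87.5% in 2D hypoxia and 89.2% in 2D normoxia. The ratio of MT2A to MT1X, which no scaling of a whole library can alter, was 1.97 in 3D hypoxia, 5.14 in 3D normoxia, 8.11 in 2D hypoxia and 10.1 in 2D normoxia. A share of this kind shows unequal change between paralogs and not which of them changed.

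**Figure D3:**
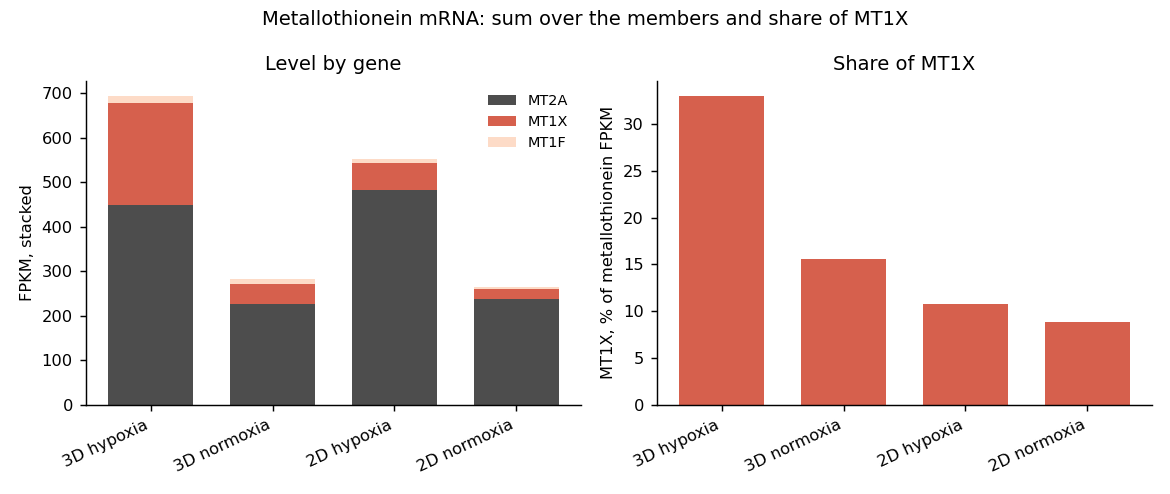
Left, FPKM of MT2A, MT1X and MT1F stacked for each library; right, MT1X as a percentage of the summed FPKM of the 5 metallothionein members (MT1E and MT1G are listed at 0). The sum is 692 FPKM in 3D hypoxia and 265 FPKM in 2D normoxia, and the share of MT1X runs between 8.8% and 33.0%.

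With culture on Matrigel as the factor, MT1X and MT1F rose in 3D and the importers SLC39A6 and SLC39A14 fell. MT1X rose by 1.40 ± 0.25 (SE, log2) as an average over both oxygen levels (limma adjusted p = 0.0198), and MT1F rose by 0.81 ± 0.15 (limma adjusted p = 0.0227). MT2A had an effect of -0.08 ± 0.13 (limma adjusted p = 0.662), and the summed metallothioneins 0.21 ± 0.14 (limma adjusted p = 0.327). Thus 2 of 8 members rose, beside 10.4% of all genes, and 2 fell, beside 11.6%. The member median was -0.08 and that of all genes -0.03. Over all genes 1313 rose and 1472 fell, against 767 and 3132 when libraries were rescaled to an equal sum, which kept the member counts. Depth moved with culture, and its part in these values was not tested. So did COL1A1, a fibroblast collagen, which was the only 1 of 4 fibroblast markers above a mean of 1 FPKM. The summed marker level was 0.672 FPKM in 3D hypoxia, 0.87 in 3D normoxia, 13.3 in 2D hypoxia and 2.36 in 2D normoxia. The other 3 markers, COL1A2, PDGFRB and DCN, were at or near 0 in all 4 libraries, so this sum is COL1A1, whose part in the result was not tested either. All 4 calls were lost without the filter on low values, where limma adjusted p ran between 0.258 and 0.358.

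In hypoxia, MT1X was 3.83-fold higher in 3D than in 2D (log2 ratio 1.92, counting error 0.06), at rank 95 from the top. SLC39A6 was lowest of the members, with a log2 ratio of -1.01, at rank 376 from the bottom. Of 8 members 1 was at least 2-fold higher, beside 3.8% of all genes, and 1 at least 2-fold lower, beside 3.02%. The member median was -0.07. In normoxia, MT1F had a ratio of 1.06 (counting error 0.24) and MT1X 0.89 (counting error 0.13). There 1 of 8 members was at least 2-fold higher, beside 1.98% of all genes, and 0 at least 2-fold lower, beside 2.49%, with a member median of -0.05. MT2A had ratios of -0.10 in hypoxia and -0.07 in normoxia.

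MTF1, the zinc-sensing activator of metallothionein genes, was the lowest of the measured members. The gene lies at chr1:37809567-37859620 on the reverse strand of GRCh38. It was at 2.50 FPKM in 3D hypoxia, 2.80 in 3D normoxia, 2.98 in 2D hypoxia and 2.67 in 2D normoxia. The 4 libraries lay close together, with a log2 ratio under hypoxia of -0.12 in 3D and 0.12 in 2D. Its average hypoxia effect was 0.00081 ± 0.15, with limma adjusted p = 0.999, and it changed sign to -0.00012 with a pseudocount of 0.1 and to -0.11 after rescaling to an equal sum. Its protein activity was not measured.

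SLC30A1 encodes the plasma membrane zinc exporter, which in many cells is induced by zinc through MTF1, and lies at chr1:211571568-211578742 on the reverse strand. It was at 13.3 FPKM in 3D hypoxia, 17.2 in 3D normoxia, 13.7 in 2D hypoxia and 17.6 in 2D normoxia. Both hypoxia libraries were below both normoxia libraries, the opposite order to MT2A. Its log2 ratio under hypoxia was -0.35 in 3D and -0.34 in 2D, each larger than its counting error of 0.06 and 0.04. The average effect of -0.34 ± 0.11 did not pass the adjustment over all genes (limma adjusted p = 0.135, unadjusted p = 0.0233). The 3D effect was -0.04 ± 0.11 (limma adjusted p = 0.82).

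SLC39A1 encodes ZIP1, a widely expressed plasma membrane zinc importer, and was the highest importer among the members. Its gene lies at chr1:153959099-153968184 on the reverse strand. It was at 97.6 FPKM in 3D hypoxia, 88.4 in 3D normoxia, 99.2 in 2D hypoxia and 112 in 2D normoxia. Both 3D libraries were slightly below both 2D libraries, and the oxygen levels overlapped. Its hypoxia effect was -0.02 ± 0.14 and its 3D effect -0.18 ± 0.14, with limma adjusted p = 0.957 and 0.365.

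SLC39A6 encodes ZIP6, an importer known as an oestrogen-regulated gene in breast cancer cells. Its gene lies at chr18:36108532-36129385 on the reverse strand. It was at 19.9 FPKM in 3D hypoxia, 21.8 in 3D normoxia, 41.1 in 2D hypoxia and 40.7 in 2D normoxia. Both 3D libraries were well below both 2D libraries, and within each culture hypoxia and normoxia lay close together. It fell by 0.94 ± 0.12 on the log2 scale in 3D (limma adjusted p = 0.0106), while its hypoxia effect was -0.06 ± 0.12 (limma adjusted p = 0.802).

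SLC39A14 encodes ZIP14, which carries zinc, manganese and non-transferrin-bound iron. Its gene lies at chr8:22367249-22434129 on the forward strand. It was at 33.7 FPKM in 3D hypoxia, 30.3 in 3D normoxia, 57.7 in 2D hypoxia and 50.3 in 2D normoxia. As with SLC39A6, both 3D libraries were below both 2D libraries. It fell by 0.74 ± 0.11 in 3D (limma adjusted p = 0.0156). Under hypoxia its effect was 0.17 ± 0.11 (limma adjusted p = 0.389). Among the measured members the order of mean levels was MT2A, SLC39A1, MT1X, SLC39A14, SLC39A6, SLC30A1, MT1F and MTF1. MT1X stood above SLC39A1 in 3D hypoxia and below it in the other 3 libraries. SLC39A14 stood above SLC39A6 in all 4 libraries, although their ranges overlapped. MT1X stood above SLC39A14 except in 2D normoxia, and SLC30A1 above MT1F except in 3D hypoxia, so these neighbours kept no single order.

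Beyond the members, SLC39A3 fell and STEAP3 rose under hypoxia among the measured genes of zinc and copper handling. Without the filter on low values no gene passed in either effect, so the calls in this and the further lists were lost there. With a pseudocount of 5, 87 of all genes rose and 39 fell under hypoxia, and which listed genes stayed was not examined. The lists are small beside the background of 3.2% rising and 1.64% falling under hypoxia, and 10.4% and 11.6% in 3D, so a count of 0 or 1 does not set a list apart from all genes. At an unadjusted p under 0.05, 1634 of all 12663 genes were higher and 1608 lower under hypoxia. In 3D, 2378 were higher and 2719 lower at that level. Of 11 other metallothionein genes and pseudogenes 2 were measured, MT1A and the pseudogene MT1DP, and by limma 0 rose and 0 fell in either effect. At an unadjusted p under 0.05 none passed for hypoxia and both were higher in 3D. MT1A was at 3.95 FPKM in 3D hypoxia, 2.94 in 3D normoxia, 1.79 in 2D hypoxia and 2.06 in 2D normoxia. Of 9 other zinc exporters 6 were measured, and by limma 0 rose and 0 fell in either effect, with none at an unadjusted p under 0.05 for hypoxia and 1 higher in 3D (SLC30A9). Of 11 other zinc importers 8 were measured. SLC39A3, another plasma membrane importer (ZIP3), fell by 0.67 ± 0.12 under hypoxia (limma adjusted p = 0.0412). It was at 13.7 FPKM in 3D hypoxia, 23.5 in 3D normoxia, 17.0 in 2D hypoxia and 26.2 in 2D normoxia, with both hypoxia libraries below both normoxia libraries. No other importer of this list passed for hypoxia, though at an unadjusted p under 0.05 SLC39A13 was higher and SLC39A7 and SLC39A11 lower.

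With culture, importers of this list were called in both directions, 1 up and 1 down. SLC39A4, the intestinal zinc importer ZIP4, rose in 3D by 0.64 ± 0.11 (limma adjusted p = 0.02), at 42.9 and 42.8 FPKM in 3D hypoxia and 3D normoxia against 26.5 and 27.7 in 2D hypoxia and 2D normoxia. SLC39A10, which encodes ZIP10, fell by 0.54 ± 0.12 in 3D (limma adjusted p = 0.0311). With the members, the importers that passed in 3D were therefore SLC39A4 upward and SLC39A6, SLC39A14 and SLC39A10 downward.

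**Figure D4:**
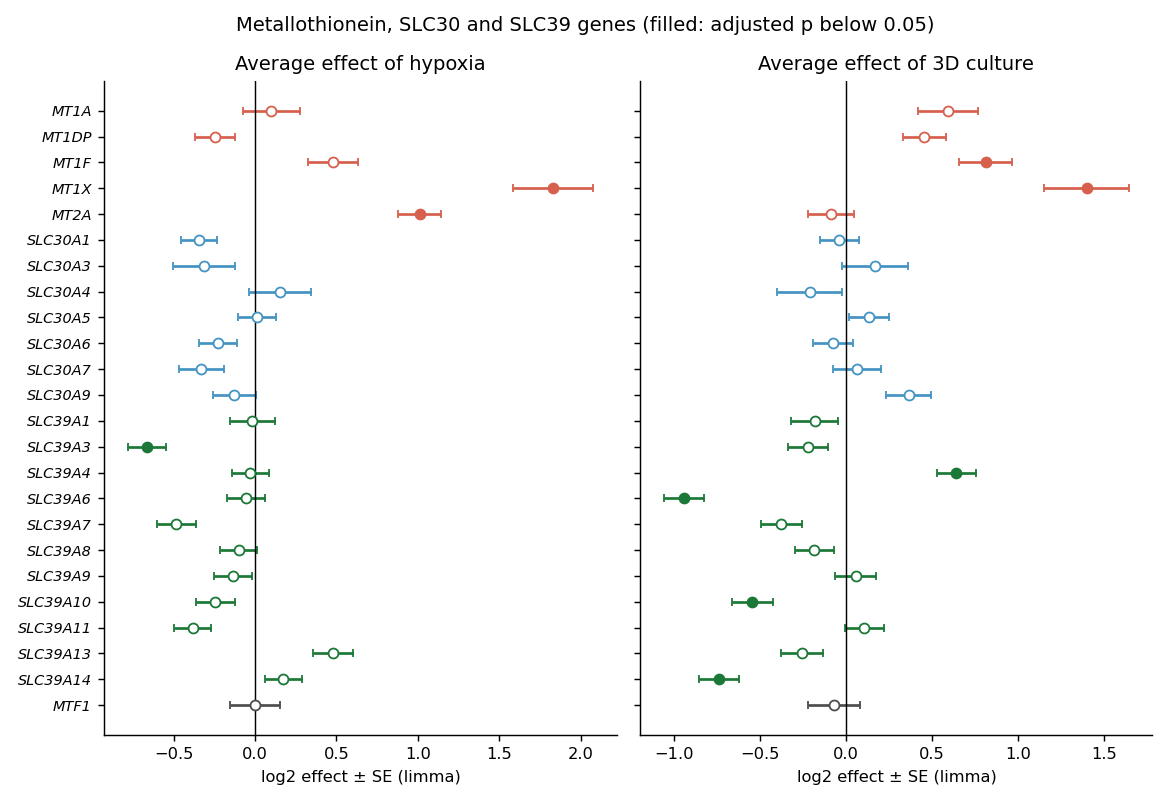
Average effects of hypoxia (hypoxia minus normoxia, left) and of culture (3D minus 2D, right) from limma on log2(FPKM + 1), with standard errors, for all measured metallothionein (red), SLC30 (blue) and SLC39 (green) genes and MTF1 (grey); filled points have an adjusted p below 0.05. Under hypoxia MT1X (1.83) and MT2A (1.01) are filled to the right and SLC39A3 (-0.67) to the left.

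All 12 copper-handling genes were measured, and 1 rose and 0 fell under hypoxia by limma. At an unadjusted p under 0.05 STEAP3 and CP were higher and SLC31A1 and SCO1 lower, beside 1634 and 1608 of all 12663 genes. STEAP3, a metalloreductase that reduces iron and copper, rose by 0.73 ± 0.11 (limma adjusted p = 0.033). In 3D 2 rose, beside 10.4% of all genes, and 1 fell, beside 11.6%. CP encodes ceruloplasmin, the copper-carrying ferroxidase. It was at 526 FPKM in 3D hypoxia, 146 in 3D normoxia, 42.5 in 2D hypoxia and 31.5 in 2D normoxia, and rose in 3D by 2.89 ± 0.32 (limma adjusted p = 0.00931). Like MT1X, CP was highest in 3D hypoxia, with hypoxia log2 ratios of 1.85 in 3D and 0.42 in 2D. COMMD1, which takes part in copper export, rose in 3D by 0.71 ± 0.12 (limma adjusted p = 0.0198), and ATP7B, a copper-exporting ATPase, fell by 0.69 ± 0.14 (limma adjusted p = 0.0279).

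Of 8 measured stress genes that metals also induce, 0 rose and 0 fell under hypoxia by limma, a count that the background shares above would also give. Only TXNRD1 was higher at an unadjusted p under 0.05, beside 1634 of all 12663 genes. HMOX1, heme oxygenase 1, was at 78.3 FPKM in 3D hypoxia and 92.2 in 3D normoxia, and at 245.5 in 2D hypoxia and 236 in 2D normoxia. It fell by 1.49 ± 0.14 in 3D (limma adjusted p = 0.00683). The chaperone gene HSPH1 fell by 0.52 ± 0.12 in 3D (limma adjusted p = 0.0357), and SRXN1, which restores oxidised peroxiredoxins, rose by 0.80 ± 0.13 (limma adjusted p = 0.0162).

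Of 8 glucocorticoid-induced genes 6 were measured. Under hypoxia 2 rose by limma, beside 3.2% of all genes, 0 fell, beside 1.64%, and 4 did not pass. At an unadjusted p under 0.05, 1 was lower (FKBP5), beside 1608 of all 12663 genes. The list was not tested as a set. DUSP1, a MAP kinase phosphatase, rose by 0.94 ± 0.12 (limma adjusted p = 0.0237), and SGK1, a serum and glucocorticoid-induced kinase, by 0.73 ± 0.13 (limma adjusted p = 0.0427). In 3D, DUSP1 fell by 1.27 ± 0.12 (limma adjusted p = 0.00796) and SGK1 fell by 0.72 ± 0.13 (limma adjusted p = 0.0209). ZFP36, which destabilises inflammatory mRNAs, rose in 3D by 0.61 ± 0.12 (limma adjusted p = 0.0229). TSC22D3, which encodes the glucocorticoid-induced leucine zipper GILZ, was at 30.8 FPKM in 3D hypoxia, 13.5 in 3D normoxia, 10.6 in 2D hypoxia and 10.0 in 2D normoxia. Its hypoxia and 3D effects did not pass (limma adjusted p = 0.2 and 0.0502).

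Genes with the most similar pattern were sought among the 8998 genes averaging 5 FPKM or more, by Euclidean distance of log2(FPKM + 1) centred on each gene's mean over the 4 libraries. Nearest to the summed metallothioneins were GRB10, C1QL1, TAGLN2, IDH2 and TPI1, at distances of 0.16 to 0.21. TAGLN2 was at 885 FPKM in 3D hypoxia, 360 in 3D normoxia, 760 in 2D hypoxia and 394 in 2D normoxia. Nearest to SLC39A14 were HERC4, TLN1, ERC1, SEPT6 and SPTLC2, at distances of 0.02 to 0.06. TLN1 was at 59.2 FPKM in 3D hypoxia, 53.5 in 3D normoxia, 99.0 in 2D hypoxia and 91.1 in 2D normoxia. With 4 libraries many genes share such a pattern, and the distances are a description.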

How the data were processed

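mRNA of A549 cells was measured in 4 libraries, prepared, per the labels' protocols, by a stranded TruSeq method. The authors deposited FPKM values, 1 for each symbol in each library. The submitters' processing notes list Cuffdiff 2.2.1, TopHat2 2.1.1, SAMtools 0.1.18 and Bowtie2 2.2.8, and the hg19 build. Annotation, strand setting, read length and library scaling were not given in the sources used here. These values are not counts, so no count model was used.

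Values were taken as log2(FPKM + 1), which understates changes of low genes. The 12663 genes averaging 1 FPKM or more entered limma 3.58.1 in R 4.3.3, with a trend and additive terms for oxygen and culture. The fit left 1 residual degree of freedom and drew on 4.67 prior ones, and p-values were adjusted over all these genes (Benjamini-Hochberg, 0.05). On simulated data drawn from the fit's own additive model, changed genes were given the right sign. The planted changes were all at least 2-fold and in the oxygen term alone, so smaller effects and the culture term were not tried. In some draws the share of false calls was above the nominal level, so calls close to the threshold are uncertain. Those data held no planted difference between the hypoxia responses of the cultures, so the fit was not tested under one. Pairs of libraries were described by size (at least 2-fold) with no test. Depth was estimated from 2134 genes with a single GENCODE 29 transcript over 1000 bases, whose commonest low FPKM times length was taken as 1 fragment; counting errors follow from it, with each gene's shortest coding transcript. Alternatives were pseudocounts of 0.1 and 5, other library scalings, other filters, no trend, a 1.5-fold line and summed metallothioneins.

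The text names all 10 members and, of 6 further lists, up to 5 measured genes each that were at least 2-fold in a pair or passed limma, CA9, and the 5 genes nearest in pattern. MT1A, MT1DP, SLC30A9, SLC39A7, SLC39A11, SLC39A13, SLC31A1, SCO1, TXNRD1 and FKBP5 were named after their values were seen. Members and lists were chosen with earlier results of these data known. Python 3.11.15 (pandas 2.3.3, numpy 2.4.6, matplotlib 3.10.9) was used for the rest.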

Additional observations from a re-analysis of the deposited data

Results flagged for a closer look

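For 3 members the hypoxia log2 ratio had opposite signs in the 2 cultures. MTF1 was at -0.12 in 3D and 0.12 in 2D, SLC39A1 at 0.14 in 3D and -0.17 in 2D, and SLC39A6 at -0.12 in 3D and 0.013 in 2D. With 1 library per group these differences were not tested, and each ratio is far below 2-fold. The share of all genes with opposite signs was not counted, so this does not set the members apart. Both SLC39A6 ratios lay within their counting errors of 0.14 in 3D and 0.06 in 2D. After rescaling to an equal sum, SLC39A6 was at -0.26 in 3D and -0.12 in 2D, no longer opposite, while MTF1 and SLC39A1 kept opposite signs.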

How the results depend on the processing

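Over all genes, the hypoxia calls (405 up and 208 down) became 87 up and 39 down with a pseudocount of 5, 254 and 112 without trend, and 755 and 531 with small RNAs and genes with a listed 0 left out. They became 313 down at a mean of at least 5 FPKM, 475 down when libraries were rescaled to a sum of 1000000, and 0 and 0 without the filter on low values (2812 genes at an unadjusted p under 0.05). The 3D calls (1313 up and 1472 down) became 767 and 3132 when rescaled to that sum and 0 and 0 without the filter (4518 genes at an unadjusted p under 0.05). That rescaling moved the median of all genes to -0.14 for hypoxia and -0.21 for 3D, which took the share of rising genes down with it. The causes of the other shifts were not tested.

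Of the members, the count rising under hypoxia was 0 with a pseudocount of 5 and 0 without the filter; the counts rising and falling in 3D were 0 and 0 without the filter. The summed metallothioneins kept their effect but lost the hypoxia call with a pseudocount of 5 (1.16, limma adjusted p = 0.0525) and without the filter (1.17, limma adjusted p = 0.438). Over its alternatives the limma adjusted p for hypoxia ran between 0.00273 and 0.481 for MT1X and between 0.00533 and 0.438 for MT2A. The hypoxia effect of MTF1 changed sign to -0.00012 with a pseudocount of 0.1 and to -0.11 with a sum of 1000000. The 3D calls of MT1X, MT1F, SLC39A6 and SLC39A14 kept their direction and side of the threshold under each alternative except the missing filter.

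Counts of members at least 2-fold moved as follows. No count of all genes was made at a 1.5-fold line, so the member counts at that line have no background beside them. In 3D hypoxia over normoxia, 2 were higher after median-ratio rescaling, beside 378 of all 12663 genes, and 2 at a 1.5-fold line. In 2D hypoxia over normoxia, 1 was higher with a sum of 1000000, beside 236 of all genes, 1 with summed metallothioneins and 3 at a 1.5-fold line. For 3D over 2D in hypoxia, 0 were lower with a pseudocount of 5 (152 of all genes) or median-ratio rescaling (354 of all genes). At a 1.5-fold line 2 were lower, and 0 were higher with summed metallothioneins. For 3D over 2D in normoxia, 0 were higher with a pseudocount of 5 (118 of all genes), a sum of 1000000 (195 of all genes) or summed metallothioneins. With a sum of 1000000, 1 was lower, beside 704 of all genes. At a 1.5-fold line 2 were higher and 2 lower. No pairing of libraries beyond the oxygen and culture terms of the fit was used. No library could be left out of the fit, which would have no residual degrees of freedom. Low depth limits MT1F most, at about 53 to 252 fragments.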

Other observations

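A pair of zinc importers outside the naming rule, chosen after their values were seen, had the lowest unadjusted p for hypoxia among those that did not pass the adjustment. SLC39A13, which encodes the Golgi and vesicle zinc transporter ZIP13, was at 29.2 FPKM in 3D hypoxia and 18.9 in 3D normoxia, and at 32.2 in 2D hypoxia and 24.9 in 2D normoxia. Its average hypoxia effect was 0.48 ± 0.12 (limma adjusted p = 0.0898), higher in both cultures. SLC39A7, which encodes ZIP7, the endoplasmic reticulum transporter that releases zinc to the cytosol, was at 69.6 FPKM in 3D hypoxia and 95.1 in 3D normoxia, and at 88.0 in 2D hypoxia and 127 in 2D normoxia. Its effect was -0.49 ± 0.12 (limma adjusted p = 0.0828), lower in both cultures.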
